A study of Mus musculus with 8 samples.

Results

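The genes described here are 9 transcription factors and markers of the renal stroma, the loose connective tissue between the nephrons and the ureteric tree: *Foxd1*, *Meis1*, *Meis2*, *Tcf21*, *Tbx18*, *Alx1*, *Osr2*, *Fibin* and *Penk*. They were chosen by name, as the rows of the count table that carry these symbols. No rule on their values was used, but earlier results of these data were known. They are 9 of 30890 genes in the table, and all 9 passed the filter on low counts that left 16723 genes to test. Embryonic kidneys (C57BL/6 mice, stage E12.5) were kept in organ culture for 72 h, with 5 µM CHIR99021 in the treated group (n = 4) and with 0.1% DMSO, its solvent, in the control group (n = 4). CHIR99021 is an inhibitor of GSK-3β, the kinase that directs β-catenin to degradation, and was given to the whole explant. By the study's methods the left kidney of an embryo received DMSO and the right kidney CHIR99021, and kidneys in which Wnt targets did not change in the typical way were excluded. RNA came from whole explants, so that fewer cells of a type and less RNA per cell cannot be told apart.

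*Foxd1* marks the cortical stromal progenitors, which surround the nephron progenitors and give rise to interstitial fibroblasts, pericytes, vascular smooth muscle and mesangium. As these cells leave the cortex they form medullary and other interstitial layers, which differ in the homeobox, T-box and zinc finger factors they express. The stroma also signals to its neighbours, and loss of *Foxd1* or of *Tcf21* in the mouse disturbs both nephron differentiation and branching of the ureteric bud.

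The 9 genes did not move together. *Fibin* and *Osr2* fell strongly, *Foxd1*, *Meis1* and *Tcf21* fell by less than 1 on the log2 scale, and *Alx1* rose. *Meis2*, *Tbx18* and *Penk* did not pass an adjusted p of 0.05 in edgeR's quasi-likelihood test. Of the 9 genes 6 were called in either direction, where 48.7% of all tested genes were. That makes 5 of 9 lower, where 25% of all tested genes were lower, and 1 of 9 higher, where 23.7% of all tested genes were higher. The same shares are the background for the counts of every gene list below. Without TMM scaling 6140 of all tested genes were lower and 2507 higher, against 4180 and 3958 with it. The median log2 fold change of the 9 genes was -0.33, beside -0.0029 over all tested genes. Past an absolute log2 fold change of 1, 3 of the 9 genes were called, where 13.8% of all tested genes were. The CPM ranges of the groups did not overlap for 4 of the 9 genes (*Meis1*, *Alx1*, *Osr2* and *Fibin*), and did not overlap for 46.1% of all tested genes. Levels are given as CPM, the usual count per library size, here with TMM-scaled sizes, in the order of replicates 1 to 4, and each log2 fold change sets CHIR99021 against DMSO, with its standard error (SE).

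**Figure D1:**
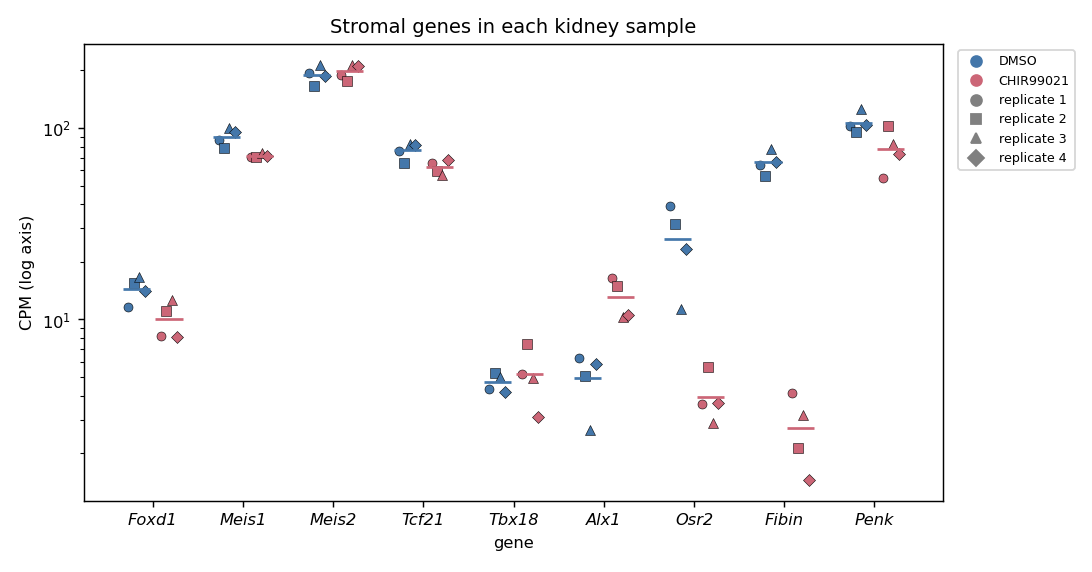
CPM of the 9 stromal genes on a log axis, with each point 1 kidney sample, the symbol its replicate number and each line the mean of 4 samples. *Fibin* falls from 66.1 to 2.72 CPM on average and *Osr2* from 26.4 to 3.95, and *Alx1* rises from 4.95 to 13.1. The groups of *Foxd1*, *Meis2*, *Tcf21*, *Tbx18* and *Penk* overlap.

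The libraries held 14599082 to 17751992 counts with DMSO and 14616300 to 16872129 with CHIR99021. All 7 listed Wnt targets rose, among them *Axin2* (log2 fold change 3.24), *Nkd1* (4.13), *Notum* (7.53), *Lef1* (2.90), *Sp5* (5.19), *Tcf7* (2.19) and *Lgr5* (0.65). Since kidneys were kept by such changes, this checks the labels and is no independent evidence. Some libraries stood apart in RNA of other tissues. Liver markers summed to 1120 CPM in DMSO replicate 2 and 782 in DMSO replicate 4, against 6.91 and 54.0 in the other DMSO samples and 1.12 to 6.93 with CHIR99021. Neural and glial markers summed to 94.6 CPM in CHIR99021 replicate 2 and to 15.7 to 23.0 in the other treated samples, with 36.3 to 72.7 in the DMSO group. Of 6 liver markers 3 were tested and all 3 fell, and of 7 neural and glial markers 5 were tested, 1 fell and 0 rose. All 8 macrophage markers fell as well, to 26.9 to 57.5 CPM in sum. They summed to 106 CPM in DMSO replicate 4 and to 386 to 423 in the other DMSO samples. The mitochondrial share of counts was 2.47 to 3.20% in control and 3.48 to 4.14% in treated samples. The part of these differences in the results was not tested beyond the fits without those libraries.

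The sequences before the start sites of *Foxd1*, *Tcf21* and *Fibin* are shown because they stand for the cortical progenitor factor, a factor shared by stroma and podocytes, and the gene that fell most. Of the 9 genes, 6 (*Foxd1*, *Meis1*, *Meis2*, *Tcf21*, *Tbx18* and *Fibin*) were matched by symbol to RefSeq promoters of GRCm38.p6. In the 250 bases before the start, both strands were searched for CTTTGA, a core of the sites bound by TCF/LEF factors, TGACAG, a core of MEIS sites, and TAAACA, a core of forkhead sites. The printed stretches stop where the gene's own exons begin in GENCODE, and capitals mark a match:
Foxd1 (chr13:98353995-98354241, + strand): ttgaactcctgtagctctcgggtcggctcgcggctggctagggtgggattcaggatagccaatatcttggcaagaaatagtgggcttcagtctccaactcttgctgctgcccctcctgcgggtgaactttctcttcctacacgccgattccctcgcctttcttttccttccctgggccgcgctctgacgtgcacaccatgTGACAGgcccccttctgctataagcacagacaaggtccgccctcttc
Tcf21 (chr10:22820175-22820393, - strand): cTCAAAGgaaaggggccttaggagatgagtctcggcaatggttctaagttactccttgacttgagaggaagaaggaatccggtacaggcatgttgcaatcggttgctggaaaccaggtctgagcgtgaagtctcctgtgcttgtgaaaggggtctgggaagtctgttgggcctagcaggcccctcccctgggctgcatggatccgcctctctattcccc
Fibin (chr2:110363184-110363243, - strand): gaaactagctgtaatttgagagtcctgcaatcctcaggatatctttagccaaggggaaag
The *Foxd1* sequence holds TGACAG 50 bases before the start, and that of *Tcf21* holds TCAAAG, which is CTTTGA on the other strand, 249 bases before it. *Meis2* holds CTTTGA 109 bases before the RefSeq start, in a stretch that GENCODE annotates as its own exon. CTTTGA was thus present in 2 of the 6 sequences and in 13.8% of all 32851 promoters, TGACAG in 1 of 6 and in 15.9%, and TAAACA in 0 of 6 and in 12.0%. These are matches of letters only.

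*Foxd1* encodes the forkhead factor of cortical stromal progenitors and lies on chromosome 13 from 98354242 to 98359305 of GRCm38, on the + strand, as a gene of 1 exon. It stood at 11.6, 15.5, 16.6 and 14.0 CPM with DMSO and at 8.18, 11.1, 12.7 and 8.09 with CHIR99021. The treated kidney was lower in all 4 pairs, by log2 differences of -0.51, -0.48, -0.38 and -0.79, while the 2 groups overlapped. The mean fell from 14.4 ± 2.14 to 10 ± 2.28 CPM (SD, n = 4), with a log2 fold change of -0.53 (SE 0.16, adjusted p = 0.0168, edgeR), or 1.44-fold. The replicate number as a block gave an adjusted p of 0.00128. The call ended without CHIR99021 replicate 1 (log2 fold change -0.44, adjusted p = 0.0521), without DMSO replicates 2 and 4, which held liver RNA (-0.50, adjusted p = 0.0899), and without those and CHIR99021 replicate 2 (-0.55, adjusted p = 0.0964). It also ended with limma on log2(count + 1) after normalizeBetweenArrays (-0.40, adjusted p = 0.0914). The study's methods name a log2 step, this normalization and limma. All fits on log2(count + 1) below include the normalization. The adjusted p of *Foxd1* ranged from 0.00128 to 0.0964 over 21 alternatives.

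*Meis1* and *Meis2* encode homeobox factors of the TALE class, which are expressed broadly through the renal interstitium. *Meis1* (chromosome 11, 18879817 to 19018985, - strand) stood at 86.8, 78.9, 99.7 and 95.3 CPM with DMSO and at 70.9, 70.4, 73.9 and 71.5 with CHIR99021. Every treated sample lay below every control sample, and the treated samples were close to each other. The mean fell from 90.2 ± 9.23 to 71.7 ± 1.56 CPM (n = 4), a log2 fold change of -0.33 (SE 0.068, adjusted p = 0.00136, edgeR), or 1.26-fold. The adjusted p stayed under 0.05 in all 21 alternatives, at 4.73e-05 to 0.00591.

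*Meis2* (chromosome 2, 115863064 to 116065839, - strand) stood at 194, 166, 213 and 187 CPM with DMSO and at 189, 177, 214 and 211 with CHIR99021. The groups lay over each other, and 3 pairs were higher and 1 lower after treatment. The means were 190 ± 19.4 and 198 ± 17.8 CPM, with a log2 fold change of 0.057 (95% interval -0.12 to 0.24, adjusted p = 0.595, edgeR). The interval leaves out a fall as large as that fitted for *Meis1*. The sign turned in 6 of the 21 alternatives, none of which called it. These were the fit without TMM (-0.079, where the median of all tested genes was -0.14), limma on log2(FPKM + 1) (-0.072), on log2(FPKM + 0.1) (-0.076) and on log2(count + 1) (-0.052, median of all tested genes 0.037), and the fits without the liver libraries (-0.048) and without DMSO replicate 2 (-0.0069). Within each library the log2 ratio of *Meis1* to *Meis2* was -1.08 ± 0.077 with DMSO and -1.46 ± 0.11 with CHIR99021, a difference of -0.38 that library scaling cannot change. Its two-sided exact permutation p was 0.0286, the smallest that 4 against 4 samples allow, and the ratio was chosen after the values were seen.

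Of 8 listed TALE genes that can partner with or resemble MEIS, 3 fell, 1 rose and 4 did not pass, with a median log2 fold change of -0.12. Over all tested genes 25% fell and 23.7% rose. In the 21 alternatives 2 to 6 of the TALE genes were called lower. *Pbx2* (lower, adjusted p = 0.0293, edgeR), named after its values were seen, lost its call in several of them. *Pknox2*, which encodes a further TALE factor, fell from 22.3 ± 1.76 to 14.0 ± 1.52 CPM (log2 fold change -0.67, adjusted p = 0.000102). The TGIF repressors moved apart, with *Tgif1* at 102 ± 7.42 and 156 ± 13.7 CPM (log2 fold change 0.62, adjusted p = 9.73e-06) and *Tgif2* at 6.33 ± 1.14 and 3.97 ± 1.05 (-0.67, adjusted p = 0.0138). *Meis3*, the remaining MEIS gene, stood at 13.0 ± 0.232 and 10.3 ± 3.51 CPM and did not pass (log2 fold change -0.34, 95% interval -0.79 to 0.11, adjusted p = 0.195).

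*Tcf21* encodes a basic helix-loop-helix factor of the stroma that is also expressed in podocytes, and lies on chromosome 10 from 22817281 to 22820174 on the - strand. It stood at 76.2, 65.4, 82.5 and 82.0 CPM with DMSO and at 66.0, 59.4, 56.8 and 68.4 with CHIR99021. The lowest control sample lay within the treated range, but the treated kidney was lower in all 4 pairs. The mean fell from 76.5 ± 7.93 to 62.6 ± 5.47 CPM (n = 4), with a log2 fold change of -0.29 (SE 0.082, adjusted p = 0.0116, edgeR), or 1.22-fold. The adjusted p was 0.00128 to 0.0436 over the 21 alternatives. Podocyte markers also differed between the groups. Of 8 listed, 6 were tested, 4 fell and 1 rose, and their sum was 382 to 464 CPM with DMSO and 215 to 282 with CHIR99021. Among them *Podxl*, a sialomucin of podocyte foot processes, had a log2 fold change of -1.11 and *Wt1*, a zinc finger factor of podocytes and nephron progenitors, one of -1.41. The part of podocyte RNA in the fall of *Tcf21* was not tested.

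*Tbx18* encodes a T-box factor of the mesenchyme around the ureter and lies on chromosome 9 from 87702800 to 87731260 on the - strand. It stood at 4.33, 5.25, 4.98 and 4.19 CPM with DMSO and at 5.18, 7.43, 4.95 and 3.09 with CHIR99021. The treated samples spread on both sides of the controls, and 2 pairs were higher and 2 lower. The means were 4.69 ± 0.511 and 5.16 ± 1.78 CPM, with a log2 fold change of 0.14 (95% interval -0.35 to 0.63, adjusted p = 0.644, edgeR). The interval is wide at this level, and it holds both a fall of the size of that of *Meis1* and a rise. Over the 21 alternatives the fitted value ran from -0.086 to 0.35.

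*Alx1*, a paired-type homeobox gene best known from craniofacial mesenchyme, was the 1 gene of the 9 that rose. It lies on chromosome 10 from 102998707 to 103030215 on the - strand and stood at 6.28, 5.08, 2.64 and 5.82 CPM with DMSO and at 16.5, 14.9, 10.3 and 10.5 with CHIR99021. All treated samples lay above all controls, and the pairs differed by 1.40, 1.55, 1.97 and 0.85 on the log2 scale. The mean rose 2.64-fold, from 4.95 ± 1.62 to 13.1 ± 3.12 CPM (n = 4), with a log2 fold change of 1.40 (SE 0.26, adjusted p = 0.00116, edgeR). Over the alternatives it ranged from 0.73 to 1.62, with an adjusted p of 1.27e-07 to 0.0229. *Alx4*, the related gene that passed the filter, moved the other way at a low level, from 1.29 ± 0.458 to 0.368 ± 0.0911 CPM (log2 fold change -1.81, adjusted p = 0.00108). *Alx4* is named after its values were seen.

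*Osr2* encodes an odd-skipped zinc finger factor, the paralog of *Osr1*, which marks the intermediate mesoderm and early nephron progenitors. *Osr2* lies on chromosome 15 from 35296098 to 35303304 on the + strand. It stood at 39.3, 31.5, 11.4 and 23.3 CPM with DMSO and at 3.62, 5.62, 2.87 and 3.68 with CHIR99021. The controls spread widely, with replicate 3 lowest, but all of them lay above all treated samples. The mean fell 6.67-fold, from 26.4 ± 12.0 to 3.95 ± 1.18 CPM (n = 4), with a log2 fold change of -2.74 (SE 0.43, 95% interval -3.74 to -1.73, adjusted p = 0.00133, edgeR). The adjusted p was 1.2e-09 to 0.0241 over the alternatives. *Osr1* stood at 28.2 ± 5.36 CPM with DMSO and 2.48 ± 1.60 with CHIR99021, and it fell (log2 fold change -3.51, SE 0.38, adjusted p = 0.000118). The log2 ratio of *Osr2* to *Osr1* within a library was -0.21 ± 0.91 with DMSO and 0.85 ± 0.81 with CHIR99021, a difference of 1.07 that did not pass (two-sided exact permutation of the groups, p = 0.229). By pair the difference was 1.27, 0.024, 1.60 and 1.37, all of one sign, for which the exact permutation within pairs gives its smallest possible p of 0.125. Nephron progenitor markers fell in the same samples, 8 of 9 listed, with *Six2*, their self-renewal factor, at 203 ± 28.4 and 5.05 ± 1.70 CPM (log2 fold change -5.33). Their sum was 1300 to 1590 CPM with DMSO and 604 to 727 with CHIR99021, and its part in the fall of *Osr2* was not tested. The study also found *Osr2* lower and placed it with a glomerular endothelial cell type. All 8 endothelial markers fell, with a sum of 448 to 631 CPM with DMSO and 177 to 243 with CHIR99021. Their part in the fall of *Osr2* was not tested either.

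*Fibin*, which encodes a small secreted protein first described in fin and limb buds, fell most among the 9 genes. It is a gene of 1 exon on chromosome 2 from 110360917 to 110363183, on the - strand. It had 1189, 986, 1325 and 1010 counts with DMSO and 66, 32, 44 and 22 with CHIR99021. In CPM these were 64.3, 56.3, 77.6 and 66.1 against 4.12, 2.14, 3.16 and 1.45. The lowest control sample was far above the highest treated one, and the pairs differed by -3.97, -4.72, -4.62 and -5.51 on the log2 scale. The mean fell 24.2-fold, from 66.1 ± 8.79 to 2.72 ± 1.17 CPM (n = 4), with a log2 fold change of -4.60 (SE 0.23, 95% interval -5.12 to -4.08, adjusted p = 4.83e-07, edgeR). The fitted value was -4.88 to -3.90 over the alternatives, each past the threshold. The log2 ratio of *Fibin* to *Meis2* within a library was -1.53 ± 0.061 with DMSO and -6.29 ± 0.69 with CHIR99021, a difference of -4.76 (two-sided exact permutation p = 0.0286, the smallest possible). The ratios to *Meis2* were chosen after the values were seen. *Fibin* already set the groups far apart and *Meis2* was not called, so this p was fixed in advance and adds no evidence. For *Foxd1* to *Meis2* the ratio was -3.73 ± 0.26 and -4.33 ± 0.34, a difference of -0.60 (exact permutation p = 0.0571), and it was lower in all 4 pairs, by -0.47, -0.57, -0.39 and -0.96. The ratios of *Meis1* and of *Fibin* to *Meis2* were also lower in all 4 pairs, and with 4 pairs an exact permutation within pairs cannot go below 0.125.

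*Penk* encodes proenkephalin, the precursor of the enkephalin opioid peptides, and lies on chromosome 4 from 4133531 to 4138819 on the - strand. It stood at 103, 95.2, 125 and 104 CPM with DMSO and at 55.0, 102, 82.2 and 73.4 with CHIR99021. Only CHIR99021 replicate 2 reached the control range, and it was also the one pair in which the treated kidney was higher. This library had the most neural and glial marker RNA, at 94.6 CPM in sum. Among the controls, replicate 2 had the highest such sum (72.7 CPM) and the lowest *Penk* level. Control replicate 3 had the lowest sum (36.3 CPM) and the highest *Penk* level. The part of neural RNA in the level of *Penk* was not tested. The *Penk* means were 107 ± 12.9 and 78.1 ± 19.4 CPM, with a log2 fold change of -0.46 (SE 0.18, 95% interval -0.88 to -0.031, adjusted p = 0.0737, edgeR), which did not pass. Without CHIR99021 replicate 2 the value was -0.61 (adjusted p = 0.011). *Penk* passed in 7 of the 21 alternatives and kept a negative sign in all, at -0.71 to -0.32.

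**Figure D2:**
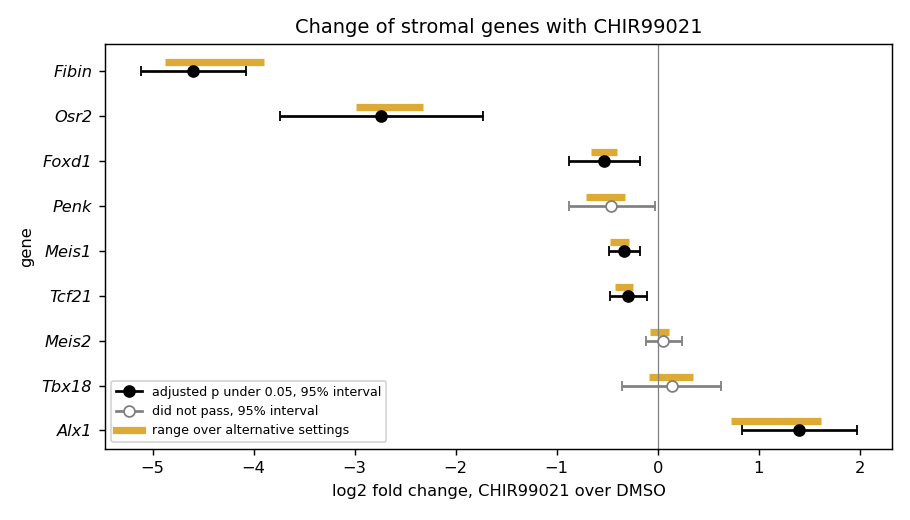
Log2 fold change, CHIR99021 over DMSO, of the 9 genes in edgeR with the 95% interval, filled where the adjusted p was under 0.05, and in yellow the range of the fitted value over 21 alternatives. The intervals of *Fibin* (-5.12 to -4.08) and *Osr2* (-3.74 to -1.73) lie far from 0, and those of *Meis2* (-0.12 to 0.24) and *Tbx18* (-0.35 to 0.63) hold it.

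Of 8 opioid processing enzymes and receptors, 4 were tested, 2 rose and 2 did not pass. *Cpe*, carboxypeptidase E, which trims peptide hormones, rose from 83.0 ± 7.94 to 363 ± 21.4 CPM (log2 fold change 2.13, adjusted p = 2.2e-10). *Pam*, which amidates peptides, rose from 66.8 ± 1.72 to 203 ± 17.4 CPM (log2 fold change 1.60, adjusted p = 9.33e-10). *Pcsk2*, a prohormone convertase, stood at 0.547 ± 0.162 and 0.720 ± 0.147 CPM (log2 fold change 0.37, adjusted p = 0.385). Both enzymes that rose process many peptides besides enkephalins. The enkephalin receptor genes *Oprd1* and *Oprm1*, named after their values were seen, did not pass the filter, at group means of 0.406 to 0.420 and 0.0323 to 0.0428 CPM.

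Of 16 closest relatives of the 9 genes only 6 passed the filter, and 5 of these fell and 0 rose, at a median log2 fold change of -2.58. Among all tested genes 25% fell and 23.7% rose. *Foxd2*, a forkhead gene of the same subfamily as *Foxd1*, fell from 20.9 ± 2.06 to 2.06 ± 0.366 CPM (log2 fold change -3.35, adjusted p = 1.89e-09). *Tcf24*, a helix-loop-helix gene related to *Tcf21*, fell from 15.3 ± 0.673 to 1.18 ± 0.398 CPM (-3.67, adjusted p = 9.94e-09). *Pnoc*, the prepronociceptin gene, did not pass the filter in edgeR, and with no filter it was higher, at 0.0731 ± 0.0278 and 0.646 ± 0.227 CPM (log2 fold change 3.03, adjusted p = 0.000118). It is named after its values were seen.

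Per gene length, in the FPKM values the authors deposited, *Penk* was the most abundant of the 9 genes in both groups, at 68.5 ± 8.77 with DMSO and 45.5 ± 11.2 with CHIR99021 (n = 4). With DMSO it was followed by *Tcf21* (34.1 FPKM) and *Fibin* (30.5), whose ranges overlapped, and then by *Meis2* (16.5), *Osr2* (16.0) and *Meis1* (8.96), of which *Osr2* overlapped both others. *Foxd1* (2.98 FPKM) stood alone, and *Tbx18* (1.04) and *Alx1* (0.899) overlapped at the bottom. With CHIR99021 the order *Penk*, *Tcf21* (25.4), *Meis2* (15.6), *Meis1* (6.48) had no overlap between neighbours. Below them *Osr2* (2.18), *Alx1* (2.16), *Foxd1* (1.88), *Fibin* (1.14) and *Tbx18* (1.04) each overlapped the next in this order, though the ranges of *Osr2*, *Alx1* and *Foxd1* (lowest value 1.53 FPKM) lay above that of *Tbx18* (highest 1.49). *Fibin* thus went from the level of *Tcf21* to that of *Tbx18*.

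**Figure D3:**
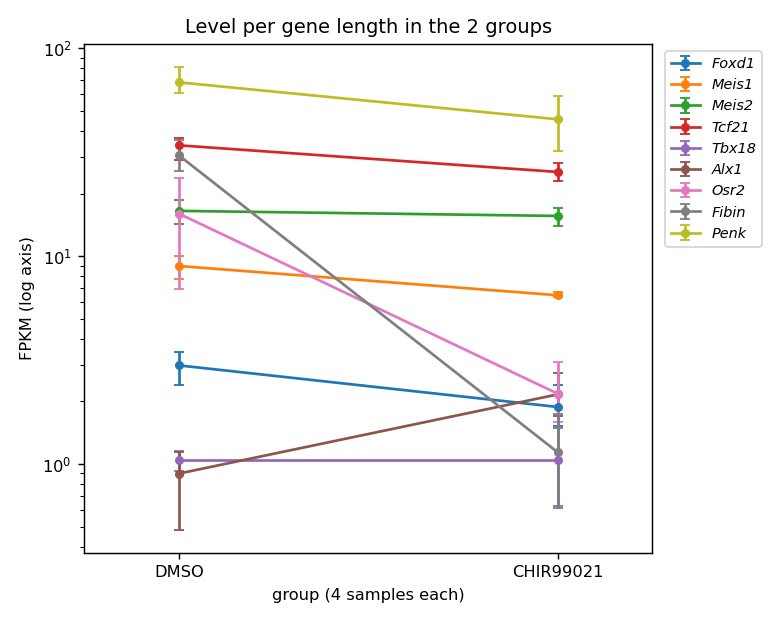
Mean FPKM of the 9 genes in each group on a log axis, with bars from the lowest to the highest of 4 samples and lines joining the groups. *Fibin* drops from 30.5 to 1.14 FPKM and *Osr2* from 16.0 to 2.18, and *Penk*, *Tcf21*, *Meis2* and *Meis1* hold the same order among themselves in both groups.

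Other stromal genes of the developing kidney moved in both directions. Of 18 listed and tested, 7 fell, 6 rose and 5 did not pass, with a median log2 fold change of 0.12. The shares over all tested genes were 25% lower and 23.7% higher. Over the 21 alternatives 6 to 8 genes of the list were called lower and 5 to 7 higher. *Zeb2* (higher, adjusted p = 0.0449, edgeR) and *Rara* (lower, adjusted p = 0.0367, edgeR), named after their values were seen, lost their calls in several alternatives. *Pdgfra*, a PDGF receptor of interstitial fibroblasts, rose from 222 ± 22.5 to 505 ± 18.1 CPM (log2 fold change 1.19, adjusted p = 2.88e-08). *Wnt5a*, a non-canonical Wnt ligand, rose from 42.9 ± 2.27 to 144 ± 20.1 CPM (1.75, adjusted p = 3.7e-08). *Aldh1a2*, the retinoic acid synthesising enzyme of the stroma, fell from 250 ± 17.3 to 112 ± 12.6 CPM (-1.15, adjusted p = 4.84e-07). The largest falls of the list, named after their values were seen, were those of *Dlk1*, a Notch-related membrane protein (487 ± 97.4 to 79.6 ± 17.8 CPM, log2 fold change -2.61, adjusted p = 4.64e-05), *Ntn1*, the guidance cue netrin-1 (-2.30, adjusted p = 5.28e-07) and *Cxcl12*, a chemokine (-2.02, adjusted p = 1.11e-05).

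Of 12 fibroblast matrix genes 9 rose, 0 fell and 3 did not pass, with a median log2 fold change of 0.80. Their sum was 7410 to 9080 CPM with DMSO and 14100 to 17100 with CHIR99021. The list also holds *Thy1* and *Vim*, fibroblast genes that do not encode matrix proteins. *Thy1*, a surface glycoprotein of fibroblasts and neurons, rose from 37.2 ± 10 to 351 ± 24.6 CPM (log2 fold change 3.24, adjusted p = 2.25e-06). *Col5a2*, a fibrillar collagen, rose from 209 ± 22.6 to 550 ± 39.2 CPM (1.40, adjusted p = 4.5e-08), and *Fn1*, fibronectin, from 1190 ± 70.3 to 2310 ± 253 (0.96, adjusted p = 4.83e-07). *Lum*, the proteoglycan lumican, named after its values were seen, stood at 59.4 ± 20.7 and 29.9 ± 10.3 CPM (-0.99, adjusted p = 0.0578) and was called lower with the replicate number as a block (-0.98, adjusted p = 0.0119).

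Of 9 mural and smooth muscle genes 8 were tested, 3 fell, 2 rose and 3 did not pass (median log2 fold change -0.13). The pericyte genes *Rgs5*, a regulator of G-protein signaling (133 ± 6.78 to 41.4 ± 15.4 CPM, log2 fold change -1.68, adjusted p = 0.0014), and *Cspg4*, the NG2 proteoglycan (120 ± 21.3 to 61.4 ± 2.97, -0.97, adjusted p = 7.43e-05), fell. *Acta2*, smooth muscle actin, rose from 79.4 ± 25.2 to 244 ± 38.5 CPM (1.62, adjusted p = 0.00193). Both counts stand beside 25% lower and 23.7% higher over all tested genes. All 8 endothelial markers fell in the same samples, with a sum of 448 to 631 CPM with DMSO and 177 to 243 with CHIR99021, and their part in the fall of the pericyte genes was not tested.

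**Figure D4:**
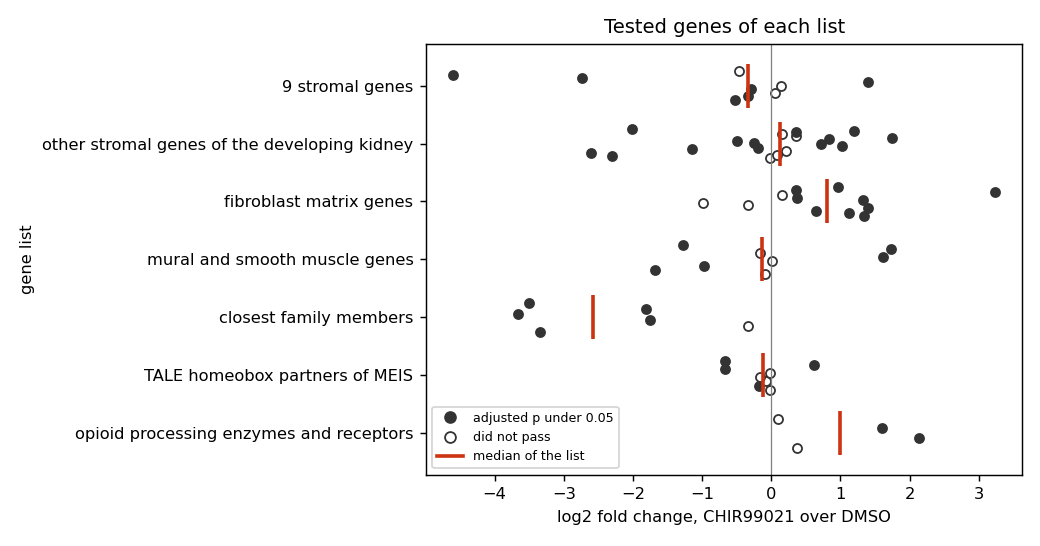
Log2 fold change, CHIR99021 over DMSO, of each tested gene of the 9 stromal genes and of 6 related lists, filled where the adjusted p was under 0.05, with the list median in red. The medians run from -2.58 for the closest relatives to 0.80 for the fibroblast matrix genes and 0.99 for the opioid processing genes, and the 9 stromal genes have -0.33.

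For each gene, the gene that varied most alike across the 8 samples was found by Pearson's r of log2 CPM, among genes of at least 5 CPM. The group difference and the shared libraries also shape r, which compares neither levels nor sizes of change. This gene was *Trim25* for *Fibin* (r = 0.996), *Galnt14* for *Osr2* (0.994), *Plekhg2* for *Alx1* (0.993), *Gpsm1* for *Meis1* (0.984) and *Simc1* for *Tcf21* (0.982). For *Penk* it was *Flot2* (0.974), for *Tbx18* *Fbxo34* (0.973), for *Foxd1* *Hyi* (0.962) and for *Meis2* *Smco4* (0.957). The sizes of change could differ much. *Trim25* had a log2 fold change of -0.62 where *Fibin* had -4.6, and *Plekhg2* had 0.2 where *Alx1* had 1.4. *Hyi* had -0.61 where *Foxd1* had -0.53. The r values are the best of many genes over 8 samples and are a description.

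Some of the 9 genes share exon bases with other annotated genes, and no source used here gives the strand setting of the counting. In GENCODE M21, *Tbx18* shares 20.6% of its exon bases with *D030062O11Rik* and *Penk* 14.3% with *A830012C17Rik*, both on the opposite strand. *Meis1* shares 9.77% with *Gm37818* on its own strand and 8.51% with *Gm16140* on the other, and *Alx1* 4.22% with *Gm17028* on its own strand. Reads in parts shared on the same strand cannot be assigned to 1 gene. Whether those in parts shared with the opposite strand can be depends on the strand setting. For *Foxd1*, *Meis2*, *Tcf21*, *Osr2* and *Fibin* no such overlap was found.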

How the data were processed

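Kidney RNA of 8 samples was sequenced, 4 per group, with groups taken from the treatment each label gives. The authors aligned reads to GRCm38 with HISAT2 2.0.5 and deposited whole-number counts per gene made with featureCounts. FPKM values were also deposited by the authors and were used for levels between genes. The table holds the authors' own comparison too (mean, fold change, p-values), which was not used. Labels and methods name different extraction and library kits.

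In R 4.3.3, edgeR 4.0.16 kept genes by filterByExpr (minimum count 10, minimum total 15), scaled libraries by TMM and applied the quasi-likelihood test with robust dispersions and the group as the only term, with Benjamini-Hochberg adjustment over 16723 genes. Genes rose or fell at an adjusted p under 0.05. The procedure was also run on simulated data in which few genes changed, unlike here, so that this checks the code only. No 2 libraries agreed within sampling noise.

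The methods assign the left and right kidney of an embryo to the groups, but the labels give only replicate numbers. Same-numbered samples correlated at 0.111 to 0.346 across genes after removal of group means, against -0.180 to 0.0766 for others. Samples of the same number were therefore treated as pairs, though these correlations cannot show that they come from 1 embryo. The main fit did not use the pairs. The replicate block was an alternative, with RLE and upper-quartile scaling, DESeq2 1.42.0, limma 3.58.1 (voom, log2 FPKM, log2 count after normalizeBetweenArrays), other filters and each sample left out. Fits without libraries holding liver or neural RNA, library totals without TMM and within-library ratios, tested over groups and within pairs, were added after the data were seen.

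The 9 genes and all lists were chosen with earlier results of these data known. Named were the 9 genes, for each the gene most alike, up to 3 genes of smallest p per related list, the Wnt targets, and *Osr1*, *Meis3* and *Six2*. Not all genes this rule gives are reported here. Positions are those of the deposited table. Of its genes, 93.2% have the same position in GENCODE M21, and *Osr2* is one that does not.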

Additional observations from a re-analysis of the deposited data

Results flagged for a closer look

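None of the 9 stromal genes had a sample far from the rest of its group by Dixon's 95% criterion for 4 samples. Among all 144 groups of 4 checked over listed genes and the genes most alike, 14 had one, where chance gives about 1 in 20. In genes near the stroma these were *Pdgfra* in CHIR99021 replicate 1 (478 CPM against 512 to 517 in the others), *Tgif2* in CHIR99021 replicate 4 (5.52 against 3.21 to 3.59) and *Pcsk2* in CHIR99021 replicate 1 (0.499 against 0.789 to 0.803). *Plekhg2*, the gene most like *Alx1*, stood at 127 CPM in DMSO replicate 3 against 138 to 140, and *Galnt14*, the gene most like *Osr2*, at 3.95 in CHIR99021 replicate 2 against 3.01 to 3.06.

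In neural markers CHIR99021 replicate 2 stood high, with *Tubb3* at 30.3 CPM against 1.64 to 3.30 and *Elavl4* at 14.0 against 1.75 to 3.35, and DMSO replicate 2 had *Tubb3* at 13.2 against 2.81 to 3.53. The macrophage gene *Lyz2* was low in DMSO replicate 4, at 53.3 CPM against 206 to 235. *Esam* was at 12.2 CPM in CHIR99021 replicate 1 against 13.2 to 13.3, *Col9a1* at 10.2 in DMSO replicate 1 against 7.19 to 7.62, and *Alas2* at 0.562 in CHIR99021 replicate 1 against 1.58 to 1.74. *Matn1* (0.0669 CPM, CHIR99021 replicate 2) and *Serpina1a* (0.0718, CHIR99021 replicate 3) had counts in 1 treated sample and 0 in the others.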

How the results depend on the processing

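Over 21 alternatives 1 of the 9 stromal genes was called higher and 4 to 6 lower, and the calls of *Meis1*, *Tcf21*, *Alx1*, *Osr2* and *Fibin* held in each. The replicate block changed no call of the 9 genes. Its adjusted p was 0.0741 for *Penk* (log2 fold change -0.48). It added *Lum* and *Vim* (0.15, adjusted p = 0.0207) of the fibroblast matrix list, and *Ecm1* (0.22, adjusted p = 0.0083) of the other stromal genes. *Foxd1* lost its call with limma on log2(count + 1) (-0.40), without the liver libraries (-0.50) and without the liver and neural libraries (-0.55), and was -0.66 to -0.43 with 1 sample left out. *Penk* gained a call with voom (-0.49), with limma on log2(FPKM + 1) (-0.61), on log2(FPKM + 0.1) (-0.62) and on log2(count + 1) (-0.54), without the liver and neural libraries (-0.71) and without TMM (-0.59), and was -0.61 to -0.32 with 1 sample left out. The causes were not tested.

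Of all tested genes 3958 were called higher, which became 2520 on log2(FPKM + 1), 2437 on log2(FPKM + 0.1) and 2507 without TMM, with 6032, 5899 and 6140 lower against 4180. The median of all genes moved to -0.10, -0.13 and -0.14 there. Past a log2 fold change of 1, 1531 lower and 778 higher genes became 736 and 343 on log2(FPKM + 1), whose pseudocount shrinks low genes. Fibroblast matrix genes called lower became 1 (*Lum*) with the block, upper-quartile scaling, DESeq2, voom, the 3 limma fits on log values and without TMM, and were 0 to 1 with 1 sample left out. Mural genes called higher became 1 with no filter, where *Cnn1* was lost (adjusted p = 0.0949), and were 1 to 2 with 1 sample left out. TALE genes called lower became 5 on log2(FPKM + 1) and 6 without TMM, against 3. Relatives called higher became 1 (*Pnoc*) with DESeq2, with no filter and without the liver, or liver and neural, libraries, and were 0 to 1 with 1 sample left out. Counts of 22 to 66 per sample limit *Fibin* after treatment.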
